A study of Mus musculus with 4 samples.

Results

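The 42 genes described here encode collagens, basement membrane proteins, proteoglycans, elastic fibre proteins and collagen-processing proteins of the extracellular matrix, together with genes that mark fibroblasts. They were found by gene name among the 48316 gene names of the authors' expression table, and all 42 were present. Cardiac fibroblasts secrete fibrillar collagen, which bears tension between muscle fibres, and the small proteoglycans that space its fibrils. Cardiomyocytes, endothelial cells and pericytes sit on basement membranes of type IV collagen, laminin and nidogen. In an injured heart fibroblasts are known to raise collagen, periostin and lysyl oxidase expression, and the scar that follows stiffens the wall and slows conduction.

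The RNA was polyadenylated RNA of cardiomyocytes freed from mouse hearts on a Langendorff apparatus, which passes enzyme through the coronary vessels. The MHC group (2 libraries) carried the MHC genotype alone and served as control. The Rbfox2 OE group (2 libraries, genotype label RbFox2) overexpressed RBFOX2, an RNA-binding protein that regulates splicing, which the series title specifies as the non-muscle isoform. All mice were of C57BL x FVB background and ate doxycycline diet for 3 days before collection, controls included. The labels do not spell out MHC or the promoter behind the transgene, and give neither age nor sex, nor whether a library is 1 heart.

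The authors' Cuffdiff table gave 1 pooled FPKM value per gene and group (fragments per kilobase of transcript, scaled to mapped fragments), with a lower and an upper bound of unstated level. Numbers in parentheses after a level are those bounds. Without values per library there was no replicate spread and no test, and the depth in reads is unknown. Differences are therefore given as levels with the authors' bounds, as the plain ratio of FPKM values, and as the log2 ratio of FPKM + 1, a scale that shrinks differences between low levels. A gene was counted as 2-fold apart at a log2 ratio of 1 or more in size, and as having separate bounds where the authors' intervals did not overlap. Rbfox2 itself stood at 14.7 FPKM in MHC and 293 FPKM in Rbfox2 OE, in the labelled direction. The cardiomyocyte gene Myl2, a ventricular myosin light chain, stood at 24688 FPKM in MHC and 18007 FPKM in Rbfox2 OE, whereas Myh6 and Mb were listed at 0 in both because Cuffdiff gave no estimate (status HIDATA). All 42 members had an estimate in both groups and lay within their own bounds.

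Most of the 42 genes stood higher in Rbfox2 OE. Their FPKM was higher in 39 genes and lower in 3 (Ogn, Lamb1 and Serpinh1, the last of which changed sign under 2 other scalings), and their summed level was 1048 FPKM in MHC and 1987 FPKM in Rbfox2 OE. Of the 41 members averaging 1 FPKM or more over the groups, 20 were at least 2-fold higher and 0 were 2-fold lower. Over all 11697 genes with such an average, 6.97% were 2-fold higher and 10.02% were 2-fold lower. With upper quartile scaling the corresponding counts over all genes were 1160 and 845, in place of 815 and 1172, and 25 members were 2-fold higher and 0 lower. The bounds were separate for 21 members, all higher, against 6.67% of all genes with separate bounds in that direction and 9.33% in the other. Both criteria were met by 17 members in the higher direction and 0 in the lower, against 5.27% and 7.42% of all genes. A log2 ratio above 0 was found for 38 of the 41 members and 46.2% of all genes. The median log2 ratio was 0.96 over the members and -0.06 over all genes. The remaining member, Col12a1, was near 0, at 0.0900 FPKM (0 to 0.225) in MHC and 0.444 FPKM (0.0871 to 0.802) in Rbfox2 OE. The other 41 members had at least 1 FPKM in MHC already, so none of them entered the count through its Rbfox2 OE value alone.

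The RNA came from a bulk preparation. More fibroblasts, more matrix RNA per fibroblast, matrix RNA from other cells and a smaller cardiomyocyte share therefore cannot be told apart. Markers of several other cell types were also higher in Rbfox2 OE, and their values are given beside the fibroblast markers below.

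**Figure D1:**
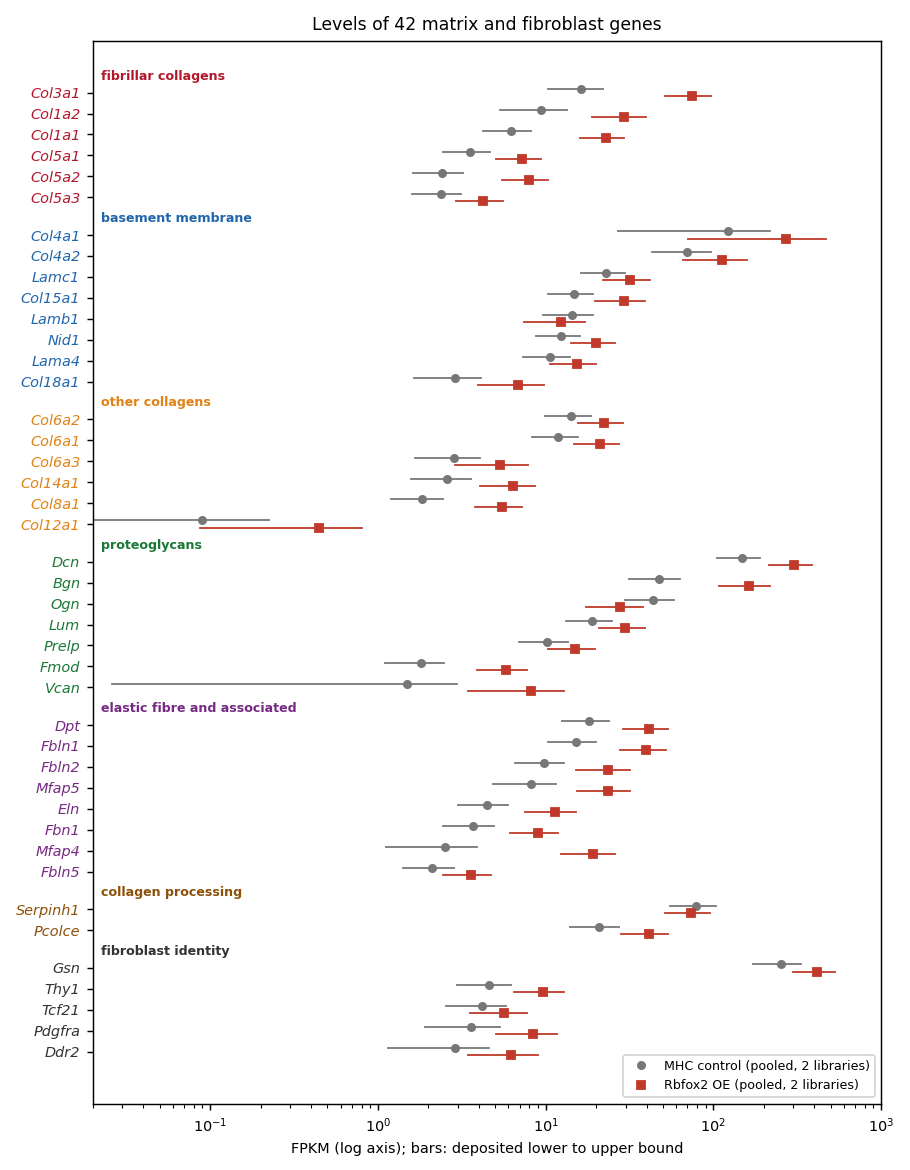
Level of each of the 42 members in FPKM (log axis) in the MHC control (grey circles) and in Rbfox2 OE (red squares), each pooled over 2 libraries, with bars from the authors' lower to upper bound (the control bar of Col12a1 starts at 0, off the axis). Gsn and Dcn are the most abundant members in both groups, and Ogn, Lamb1 and Serpinh1 are the 3 members with the red square left of the grey circle (for Serpinh1 this turned under 2 other scalings).

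The promoters of 4 collagen genes are shown because these genes carry the contrast between fibrillar and basement membrane collagen described next. Col3a1 and Col1a2 encode fibrillar chains, and Col4a1 and Col4a2 encode the chains of the main type IV collagen and are read in opposite directions from a shared start region. Each sequence is the RefSeq window on GRCm38.p6 from 250 bases before to 50 bases after the RefSeq transcription start, read 5′ to 3′ on the gene's strand. Capitals mark exact matches to CCAAT or TATAAA on either strand, at any position. Whether a match acts as a promoter element was not tested.
Col3a1 (chr1:45311288-45311587, plus strand): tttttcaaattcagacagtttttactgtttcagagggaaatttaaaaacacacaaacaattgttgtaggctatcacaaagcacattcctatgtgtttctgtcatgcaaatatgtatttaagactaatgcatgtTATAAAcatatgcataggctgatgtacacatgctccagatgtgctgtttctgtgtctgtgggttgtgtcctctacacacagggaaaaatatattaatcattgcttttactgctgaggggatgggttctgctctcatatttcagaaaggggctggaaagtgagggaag
Col1a2 (chr6:4505368-4505667, plus strand): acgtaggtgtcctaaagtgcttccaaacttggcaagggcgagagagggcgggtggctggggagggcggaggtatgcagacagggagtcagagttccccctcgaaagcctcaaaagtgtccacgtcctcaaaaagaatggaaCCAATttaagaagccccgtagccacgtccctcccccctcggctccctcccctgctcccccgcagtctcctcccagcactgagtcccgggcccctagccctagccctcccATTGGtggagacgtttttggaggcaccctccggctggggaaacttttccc
Col4a1 (chr8:11312777-11313076, minus strand): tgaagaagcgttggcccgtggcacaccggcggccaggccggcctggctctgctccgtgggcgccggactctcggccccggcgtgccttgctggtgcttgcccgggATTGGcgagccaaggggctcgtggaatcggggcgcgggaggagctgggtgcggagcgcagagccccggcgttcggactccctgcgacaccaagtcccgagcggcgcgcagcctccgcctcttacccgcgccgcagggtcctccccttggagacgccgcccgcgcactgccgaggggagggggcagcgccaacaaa
Col4a2 (chr8:11312555-11312854, plus strand): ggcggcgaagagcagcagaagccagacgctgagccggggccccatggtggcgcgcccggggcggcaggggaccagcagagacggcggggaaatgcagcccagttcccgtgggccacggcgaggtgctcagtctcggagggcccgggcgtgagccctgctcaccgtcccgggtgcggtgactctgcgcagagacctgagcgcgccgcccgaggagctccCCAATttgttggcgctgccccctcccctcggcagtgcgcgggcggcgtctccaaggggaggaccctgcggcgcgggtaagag
The starts of Col4a1 and Col4a2 lay 21 bases apart and their windows shared 78 bases. The Col4a1 window was 74.0% G and C and the Col3a1 window 37.7%. RefSeq windows were matched for 30 of the 42 members, 36 windows in all. CCAAT, searched on both strands, was present in 36.1% of these windows and in 37.4% of all 32851 windows in the table. TATAAA was present in 11.1% of the members' windows and in 13.6% of all windows. Both shares were slightly under those of all windows.

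The fibrillar collagens form the tension-bearing fibrils of the heart wall, types I and III making up the bulk and type V starting the fibril. All 6 stood higher in Rbfox2 OE, 4 of them at least 2-fold and 5 with separate bounds, with a median log2 ratio of 1.47. The shares of all genes were 6.97% at least 2-fold higher and 6.67% with separate higher bounds. Col3a1 (ENSMUSG00000026043, GRCm38 chromosome 1, 45311538 to 45349706, plus strand), the chain of type III collagen, stood at 16.2 FPKM (10.3 to 22.1) in MHC and at 74.2 FPKM (51.3 to 97.1) in Rbfox2 OE. That is a ratio of 4.58 and a log2 ratio of 2.13, and even the nearest pair of bounds gave 1.18. Col3a1 and Mfap4 were the 2 members past a 4-fold threshold on the log2 scale used.

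The type I chains followed. Col1a1 (chromosome 11, 94936224 to 94953042, plus strand) stood at 6.19 FPKM (4.23 to 8.14) in MHC and 22.8 FPKM (16.0 to 29.5) in Rbfox2 OE, a log2 ratio of 1.72. Col1a2 (chromosome 6, 4504814 to 4541544, plus strand) stood at 9.35 FPKM (5.33 to 13.4) and 29.4 FPKM (18.9 to 39.8), a log2 ratio of 1.55. The 2 chains, which assemble into 1 trimer, stood higher by similar factors, 3.68 and 3.14. The Col1a1 level was 0.662 of the Col1a2 level in MHC and 0.774 in Rbfox2 OE, with overlapping extremes from the bounds (0.317 to 1.53 and 0.403 to 1.56).

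The type V chains were less even. Col5a2 stood at 2.43 FPKM (1.62 to 3.24) in MHC and 7.96 FPKM (5.53 to 10.4) in Rbfox2 OE, a log2 ratio of 1.39. Col5a1 stood at 3.54 FPKM (2.45 to 4.64) and 7.21 FPKM (5.03 to 9.40), a log2 ratio of 0.85 with separate bounds. Col5a3 stood at 2.37 and 4.25 FPKM, with bounds that overlapped (upper control bound 3.15, lower Rbfox2 OE bound 2.92). Whether the chains differ from each other in their ratio was not tested.

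Basement membrane genes differed less. Of the 8, Col15a1 was the 1 gene with separate bounds, and Col4a1 and Col18a1 were 2-fold higher with bounds that overlapped. The median log2 ratio of the 8 was 0.66. Of all genes, 6.67% had separate higher bounds and 6.97% were 2-fold higher. Type IV collagen was the most abundant collagen of these preparations: Col4a1 (chromosome 8, 11198423 to 11312826, minus strand) stood at 122 FPKM (26.9 to 217) in MHC and 270 FPKM (71.1 to 469) in Rbfox2 OE. Those bounds were so wide that the log2 ratio of 1.14 could lie between -1.60 and 4.07. The partner Col4a2 (chromosome 8, 11312805 to 11449287, plus strand) stood at 70.0 FPKM (43.4 to 96.7) and 112 FPKM (65.6 to 159), a log2 ratio of 0.68. The deposited table places both genes in 1 locus. Their first exons overlap on opposite strands only at the starts, which lie 21 bases apart. How fragments of this locus were divided between the genes was not tested.

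Col15a1 and Col18a1 encode collagens that link basement membranes to the matrix beneath, and Col18a1 is the source of endostatin. Col15a1 stood at 14.8 FPKM (10.3 to 19.2) in MHC and 29.5 FPKM (19.6 to 39.4) in Rbfox2 OE, a log2 ratio of 0.95. Col18a1 stood at 2.88 FPKM (1.64 to 4.12) and 6.84 FPKM (3.96 to 9.72), and the bounds overlapped slightly. On the log2 scale used, the laminin chains and nidogen had the lowest ratios of this group. Lamc1, the gamma chain of most laminins, stood at 23.1 and 32.0 FPKM. Nid1, which bridges laminin and type IV collagen, stood at 12.4 and 20.0 FPKM, and Lama4, the alpha chain of vessel laminin, at 10.7 and 15.4 FPKM. Lamb1, a laminin beta chain, was lower in Rbfox2 OE, at 14.3 FPKM (9.65 to 19.0) in MHC against 12.3 FPKM (7.44 to 17.1). The bounds of these 4 genes overlapped.

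Among all 44 collagen genes of the table, 18 averaged 1 FPKM or more, and 15 of those were members. The summed collagen level was 298 FPKM in MHC and 643 FPKM in Rbfox2 OE. Col4a1 and Col4a2 supplied 64.4% of it in MHC and 59.5% in Rbfox2 OE, and the 6 fibrillar members supplied 13.5% and 22.7%. By these point values the collagen RNA of both preparations was mostly of basement membrane type, with a larger fibrillar share in Rbfox2 OE. The shares rest largely on Col4a1, whose bounds ran from 26.9 to 217 FPKM in MHC and from 71.1 to 469 FPKM in Rbfox2 OE. Bounds that wide leave the direction of the difference in share unsettled, and it was not tested. Of the 28 collagen chains outside the members, 25 were under the minimum. The 3 above it were Col16a1, Col27a1 and Col4a5. Col4a5, a chain of another type IV trimer, was lower in Rbfox2 OE, at 8.19 FPKM (5.68 to 10.7) in MHC and 3.35 FPKM (2.19 to 4.50) in Rbfox2 OE, a log2 ratio of -1.08.

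**Figure D2:**
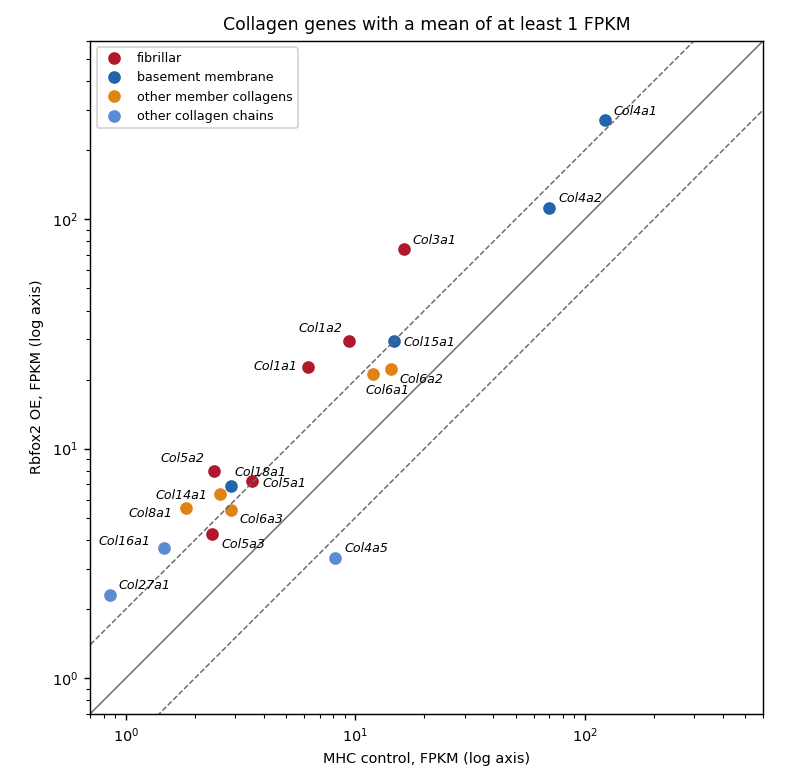
FPKM of the 18 collagen genes averaging 1 FPKM or more, MHC control on the horizontal and Rbfox2 OE on the vertical axis (both log axes), coloured by group, with a solid line for equal levels and dashed lines for 2-fold differences. Above the upper dashed line, a plain ratio of 2, lie Col3a1, Col1a1, Col1a2, Col5a1, Col5a2, Col4a1, Col18a1, Col8a1, Col14a1, Col16a1 and Col27a1. Col4a1 and Col4a2 lie at the upper right, and Col4a5 lies below the lower dashed line.

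The remaining member collagens are the network-forming type VI chains, the type VIII chain Col8a1 of vessel walls, and Col12a1 and Col14a1, which coat fibrils. Col8a1 stood at 1.83 FPKM (1.19 to 2.46) in MHC and 5.52 FPKM (3.81 to 7.23) in Rbfox2 OE, a log2 ratio of 1.21. Col14a1 stood at 2.57 FPKM (1.57 to 3.58) and 6.37 FPKM (4.04 to 8.70), a log2 ratio of 1.04. The 3 type VI chains, which build 1 heterotrimer, had log2 ratios of 0.78 (Col6a1), 0.73 (Col6a3) and 0.61 (Col6a2), and their bounds overlapped between groups. The most abundant of them, Col6a2, stood at 14.3 FPKM (9.96 to 18.6) and 22.4 FPKM (15.7 to 29.0).

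The proteoglycans were split. Biglycan, decorin, fibromodulin and versican were at least 2-fold higher with separate bounds, whereas lumican, prolargin and osteoglycin had overlapping bounds. Of all genes, 5.27% were 2-fold higher with separate bounds. Dcn (ENSMUSG00000019929, chromosome 10, 97479609 to 97518143, plus strand), which binds fibrils and limits their width, stood at 147 FPKM (105 to 189) in MHC and 301 FPKM (216 to 386) in Rbfox2 OE, a ratio of 2.04 and a log2 ratio of 1.03. Bgn (chromosome X, 73483602 to 73495933, plus strand), the close relative of decorin, stood at 47.3 FPKM (31.2 to 63.4) and 163 FPKM (108 to 217), a ratio of 3.44 and a log2 ratio of 1.76. The biglycan level was 0.321 of the decorin level in MHC and 0.540 in Rbfox2 OE, although the extremes that the bounds allow overlapped (0.165 to 0.602 and 0.280 to 1.0).

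Vcan and Fmod were the low members of this group. Vcan encodes versican, a large proteoglycan of provisional matrix, and stood at 1.49 FPKM (0.0261 to 2.95) in MHC and 8.19 FPKM (3.45 to 12.9) in Rbfox2 OE. Its plain ratio of 5.50 was the second largest of the members, after Mfap4, but its log2 ratio of 1.88 could lie between 0.17 and 3.76. Fmod, which like lumican binds collagen fibrils, stood at 1.80 FPKM (1.10 to 2.49) and 5.84 FPKM (3.90 to 7.78), a log2 ratio of 1.29.

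Of the other proteoglycans, Lum stood at 18.9 and 29.8 FPKM and Prelp at 10.3 and 15.0 FPKM. Ogn (chromosome 13, 49608046 to 49624501, plus strand), which encodes osteoglycin (mimecan), went the other way, at 43.8 FPKM (29.5 to 58.1) in MHC and 27.8 FPKM (17.5 to 38.1) in Rbfox2 OE. Its log2 ratio of -0.64 was the lowest of the 42 members. Among the 7 member proteoglycans its level was the third highest in MHC, after Dcn and Bgn, and the fourth highest in Rbfox2 OE, after Lum.

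Among the member groups, the elastic fibre genes most often stood apart. Elastic fibres consist of an elastin core on a scaffold of fibrillin microfibrils, joined by fibulins and microfibril-associated proteins. Of the 8 genes here, 7 were at least 2-fold higher with separate bounds, against 5.27% of all genes, and the median log2 ratio was 1.18. The 14 other elastic fibre genes averaging 1 FPKM or more had a median of -0.05, with 7 above 0 and 7 below. Mfap4 (ENSMUSG00000042436, chromosome 11, 61485431 to 61488900, plus strand), a microfibril protein, stood at 2.51 FPKM (1.11 to 3.90) in MHC and 19.1 FPKM (12.3 to 25.9) in Rbfox2 OE. Its ratio of 7.62 and log2 ratio of 2.52 were the largest of the 42 members. The exons of Mfap4 overlap those of Mapk7 on the opposite strand, and Mapk7 had a log2 ratio of 0.77 with overlapping bounds.

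Mfap5, another microfibril protein, stood at 8.24 FPKM (4.88 to 11.6) in MHC and 23.7 FPKM (15.3 to 32.0) in Rbfox2 OE. The fibrillin gene Fbn1 stood at 3.71 FPKM (2.46 to 4.96) and 8.99 FPKM (6.17 to 11.8). Eln, elastin, stood at 4.50 FPKM (3.01 to 5.99) and 11.3 FPKM (7.54 to 15.1). By point values fibrillin and elastin differed by nearly the same factor, 2.42 and 2.52, so the elastin level was 1.21 of the fibrillin level in MHC and 1.26 in Rbfox2 OE. The bounds allow 0.608 to 2.43 in MHC and 0.638 to 2.46 in Rbfox2 OE.

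The fibulins link elastin to its scaffold and to basement membranes. Fbln1 stood at 15.1 FPKM (10.4 to 19.9) in MHC and 39.9 FPKM (27.8 to 52.0) in Rbfox2 OE, a log2 ratio of 1.34. Fbln2 stood at 9.76 FPKM (6.58 to 12.9) and 23.6 FPKM (15.1 to 32.0), a log2 ratio of 1.19. Fbln5, which is needed for elastic fibre assembly, was the exception, at 2.12 FPKM (1.40 to 2.83) and 3.59 FPKM (2.45 to 4.73) with overlapping bounds. Dpt, dermatopontin, which binds decorin and helps fibrils form, was the most abundant gene of this group, at 18.2 FPKM (12.6 to 23.9) and 41.2 FPKM (28.8 to 53.7), a log2 ratio of 1.13.

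The 2 collagen-processing members differed from each other. Pcolce encodes the enhancer of the protease that trims procollagen, and stood at 20.7 FPKM (14.1 to 27.3) in MHC and 41.1 FPKM (28.2 to 54.0) in Rbfox2 OE, a log2 ratio of 0.96 with separate bounds. Serpinh1 (chromosome 7, 99345376 to 99353239, minus strand) encodes HSP47, the collagen chaperone of the endoplasmic reticulum, and stood at 79.3 FPKM (55.5 to 103) and 73.2 FPKM (51.4 to 95.02). Its log2 ratio of -0.11 changed sign on rescaling without mitochondrial and top genes, to 0.039, and with upper quartile scaling, to 0.086. The Col1a1 level was 0.0780 of the Serpinh1 level in MHC (0.0410 to 0.147 from the bounds) and 0.311 in Rbfox2 OE (0.169 to 0.574), and these ranges did not overlap. This ratio was chosen after the values were seen.

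All 5 fibroblast identity genes stood higher in Rbfox2 OE. Their median log2 ratio was 0.90, against 1.47 for the fibrillar collagens. On that scale 1 of 5 was past 2-fold and 1 of 5 had separate bounds, against 6.97% and 6.67% of all genes. The plain ratios of Pdgfra, Ddr2 and Thy1 were 2.32, 2.17 and 2.10, and those of Gsn and Tcf21 were 1.64 and 1.35. With a pseudocount of 0.1 the medians were 1.06 for the identity genes and 1.66 for the fibrillar collagens. Pdgfra, the receptor that marks cardiac fibroblasts, stood at 3.61 FPKM (1.92 to 5.31) in MHC and 8.37 FPKM (5.06 to 11.7) in Rbfox2 OE, a log2 ratio of 1.02. Ddr2, a receptor for fibrillar collagen, stood at 2.87 FPKM (1.15 to 4.58) and 6.21 FPKM (3.44 to 8.97). Both pairs of bounds overlapped.

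Thy1, a surface glycoprotein, stood at 4.59 FPKM (2.94 to 6.24) in MHC and 9.65 FPKM (6.51 to 12.8) in Rbfox2 OE, and was the identity gene with separate bounds. Tcf21, the transcription factor that specifies cardiac fibroblasts, differed least, at 4.18 FPKM (2.54 to 5.82) and 5.65 FPKM (3.55 to 7.76), a log2 ratio of 0.36. Gsn, gelsolin, an actin-severing protein abundant in fibroblasts, was the most abundant of the 42 members in both groups, at 254 FPKM (173 to 334) and 416 FPKM (299 to 532), a log2 ratio of 0.71 with overlapping bounds. Relative to Pdgfra, the Col3a1 level was 4.49 in MHC (1.95 to 11.5 from the bounds) and 8.86 in Rbfox2 OE (4.39 to 19.2), whereas the Dcn level was 40.8 and 36.0, and both pairs of ranges overlapped.

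**Figure D3:**
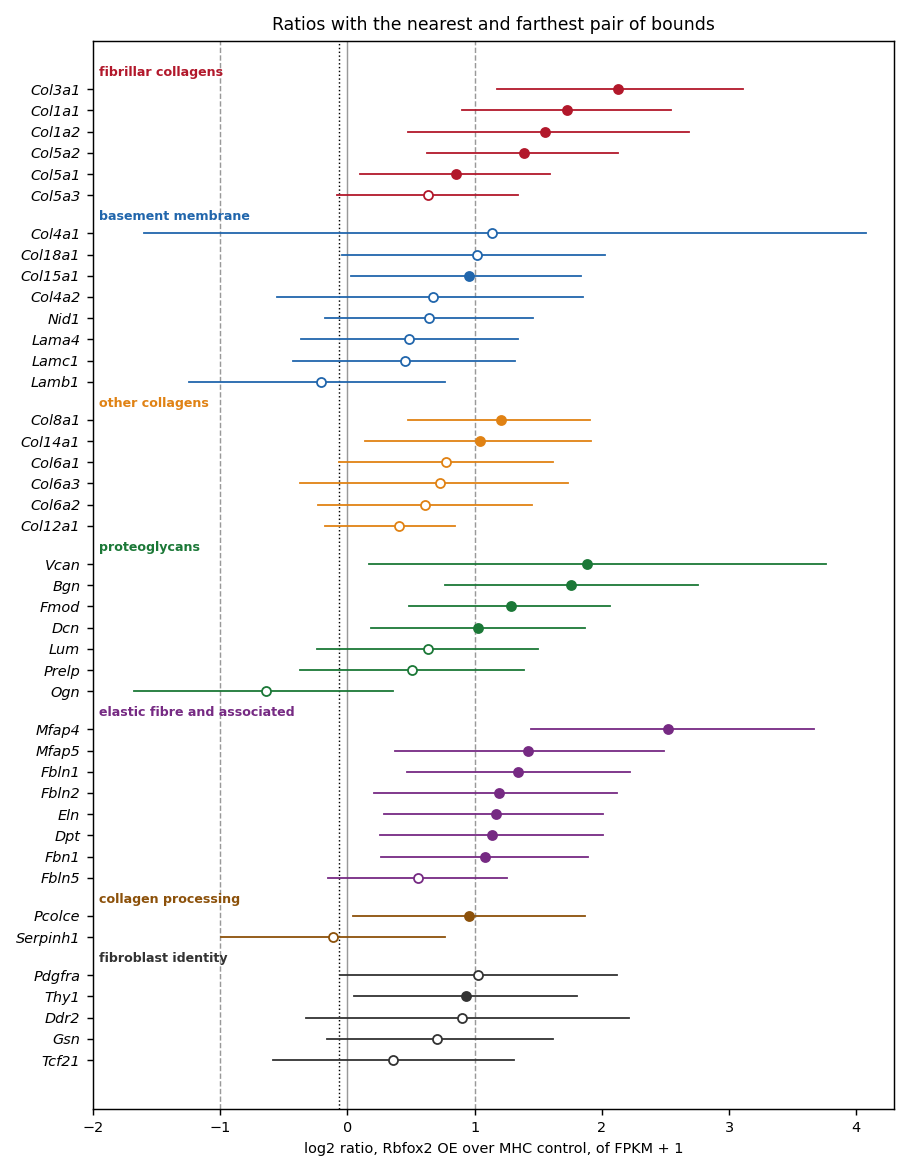
log2 ratio of FPKM + 1, Rbfox2 OE over MHC control, for each of the 42 members, with lines from the nearest to the farthest pair of bounds, filled circles where the bounds are separate, dashed lines at a 2-fold difference and a dotted line at the median of all genes (-0.06). The filled circles crowd the fibrillar, proteoglycan and elastic fibre groups, and Mfap4 (2.52) and Ogn (-0.64) mark the ends.

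The genes just either side of the 2-fold threshold show how much its count rests on small differences. Ddr2 (0.90), Thy1 (0.93), Col15a1 (0.95) and Pcolce (0.96) lay just under a log2 ratio of 1. Col18a1 (1.02), Pdgfra (1.02), Dcn (1.03) and Col14a1 (1.04) lay just over it. Raising the pseudocount to 5 left 10 members 2-fold higher, against 2.60% of all genes, and lowering it to 0.1 gave 23, against 10.1% of all genes.

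The wider matrix programme was compared through 5 lists of related genes, 116 genes in all, of which 68 passed the minimum of 1 FPKM. Of these 68 genes, 13 were 2-fold higher (19.1%), 7 were 2-fold lower, and the median log2 ratio was 0.37. Of the 68, 4 (Col27a1, Lox, Loxl3 and Mfap2) were under 1 FPKM in MHC and passed the minimum through Rbfox2 OE alone, and without them 11 of 64 were 2-fold higher. Adamts3 and Lamb3 passed through MHC alone. Collagen-processing and cross-linking enzymes had 2 of 26 genes 2-fold higher (7.69%, against 6.97% of all genes) and 1 lower, with a median of 0.31. The 2 higher genes were Lox, which passed the minimum through Rbfox2 OE alone, and Loxl1, both lysyl oxidases, which cross-link collagen and elastin. Lox stood at 0.441 FPKM (0.231 to 0.651) in MHC and 4.33 FPKM (2.90 to 5.76) in Rbfox2 OE, and Loxl1 at 6.25 FPKM (4.26 to 8.25) and 22.5 FPKM (15.7 to 29.3). P4ha2, a catalytic chain of prolyl hydroxylase, which stabilises the collagen helix, was lower, at 31.3 FPKM (20.4 to 42.2) and 13.7 FPKM (8.92 to 18.5). The abundant matrix glycoprotein gene Sparc stood at 138 and 254 FPKM, with overlapping bounds.

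The other basement membrane genes had a median log2 ratio of -0.23, with 2 of 11 genes 2-fold higher and 3 lower. Over all genes the shares were 6.97% and 10.02%. Of the 3 lower genes, Lama5 had separate bounds, whereas those of Lama2 and Lamb3 overlapped. Lama5, a laminin alpha chain, was lower, at 16.6 FPKM (10.7 to 22.6) in MHC and 5.29 FPKM (3.58 to 7.01) in Rbfox2 OE. Lamb2, a beta chain more abundant than the member Lamb1, stood at 85.7 FPKM (42.3 to 129) and 43.9 FPKM (19.7 to 68.1), with overlapping bounds. Tinagl1 was higher, at 37.5 FPKM (26.3 to 48.8) and 83.7 FPKM (57.3 to 110.03), as was the low Smoc1, with a log2 ratio of 1.19. Outside the members, basement membrane genes thus differed in both directions. By either criterion 0 of the 8 members were lower. With 10.02% of all genes 2-fold lower and 9.33% with separate lower bounds, this does not set the 8 members apart.

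Of the 14 other proteoglycan genes above the minimum, 4 were 2-fold higher and 1 lower, with a median of 0.58. Over all genes 6.97% were 2-fold higher and 10.02% lower. Prg4, lubricin, had the largest log2 ratio, 3.04, but its control value of 4.21 FPKM had bounds from 0 to 14.0, close to the lower Rbfox2 OE bound of 14.5. Gpc3, a glypican, and Sdc4, a syndecan, had log2 ratios of 1.45 and 1.40, and Spock2 had 1.02. Gpc1, another glypican and an abundant one, was lower, at 145 FPKM (104 to 185) in MHC and 65.7 FPKM (45.8 to 85.5) in Rbfox2 OE. Among 14 other elastic fibre genes 5 were 2-fold higher and 1 lower, and the median was near 0 (-0.05), against 1.18 for the members of that role. Emilin1, which helps elastin deposit on microfibrils, had a log2 ratio of 1.66, followed by Mfap2 (1.34), Efemp2 (1.27) and Adamtsl2 (1.22), each with separate bounds. Mfap2, at 0.682 FPKM in MHC and 3.25 FPKM in Rbfox2 OE, passed the minimum through the latter alone.

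Fibroblast markers that are not members of the list were compared in the same way. Which cells the members' RNA came from was not measured. Of 16 such markers, 15 stood higher in Rbfox2 OE, 3 were 2-fold higher and 4 had separate bounds. The shares of all genes were 46.2%, 6.97% and 6.67%. Their median log2 ratio was 0.62 and their summed level was 130 FPKM in MHC and 224 FPKM in Rbfox2 OE. Medag, Pi16 and Olfml3 were the 3 past 2-fold, with log2 ratios of 1.89, 1.42 and 1.19. Scara5 and Abca8a had log2 ratios of 0.25 and -0.26 with overlapping bounds. When all ratios were centred on the median of these 16 markers, a setting chosen after seeing the data, 5 members were 2-fold higher, 1 (Ogn) was 2-fold lower, 7 had separate bounds above and 1 below, and the median of the members was 0.38. Over all genes this centring gave 2.77% 2-fold higher, 26.0% 2-fold lower and a median of -0.56.

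Genes known for activated fibroblasts formed a list of 12, of which 8 averaged 1 FPKM or more. Of these 8, 4 (Tnc, Lox, Cilp and Comp) were under 1 FPKM in MHC and passed through Rbfox2 OE alone. Of the 4 genes with at least 1 FPKM in MHC, 3 (Postn, Fn1 and Acta2) were 2-fold higher with separate bounds. The share of all genes that met both criteria was 5.27%. Postn, periostin, stood at 7.15 FPKM (4.18 to 10.1) in MHC and 32.5 FPKM (19.8 to 45.3) in Rbfox2 OE. Tnc, tenascin-C, stood at 0.108 FPKM (0.0426 to 0.173) and 5.23 FPKM (3.63 to 6.82). Fn1 and Acta2 had log2 ratios of 1.83 and 1.65. The other 4 genes of the list (Cthrc1, Fap, Ltbp2 and Thbs4) were under the minimum mean, with Fap at 0.688 FPKM in MHC and 0.896 FPKM in Rbfox2 OE. Thbs4, at 1.02 and 0.667 FPKM, was the 1 gene of the list with a lower value in Rbfox2 OE, and its bounds overlapped.

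Markers of most other non-muscle cells also stood higher in Rbfox2 OE, and their part in these results was not tested. Beside the counts below, 6.97% of all genes were 2-fold higher and 10.02% were 2-fold lower. Macrophage and leukocyte markers were 2-fold higher in 12 of 14 genes, with a median log2 ratio of 1.55 and a summed level of 138 FPKM in MHC and 474 FPKM in Rbfox2 OE. Without Fcgr1 and Adgre1, which passed the minimum through Rbfox2 OE alone, this was 11 of 12 genes. Red blood cell genes were 2-fold higher in 4 of 5, summing to 56.6 and 295 FPKM, and in 3 of 3 without Hba-a2 and Alas2, which passed in the same way. Endothelial markers, of a cell type that also makes basement membrane, were 2-fold higher in 4 of 16, with a median of 0.79 and sums of 712 and 1140 FPKM. Smooth muscle and pericyte markers had a median of 0.64 and sums of 178 and 222 FPKM. Of these 11 genes, 1 was 2-fold higher and 1, Abcc9, was 2-fold lower, both near the shares of all genes. Epicardial markers, of the cell sheet around the heart, were 2-fold higher in 3 of 9, with a median of 0.93 and sums of 17.1 and 48.5 FPKM, and Upk1b and Krt8 of that list also passed through Rbfox2 OE alone. None of the 4 Schwann cell markers reached a mean of 1 FPKM. Cardiomyocyte markers had a median of -0.65, with 0 of 12 genes 2-fold higher and 3 lower, and summed to 56662 and 36889 FPKM. No marker of these lists other than Myh6 and Mb was listed at 0 in both groups.

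**Figure D4:**
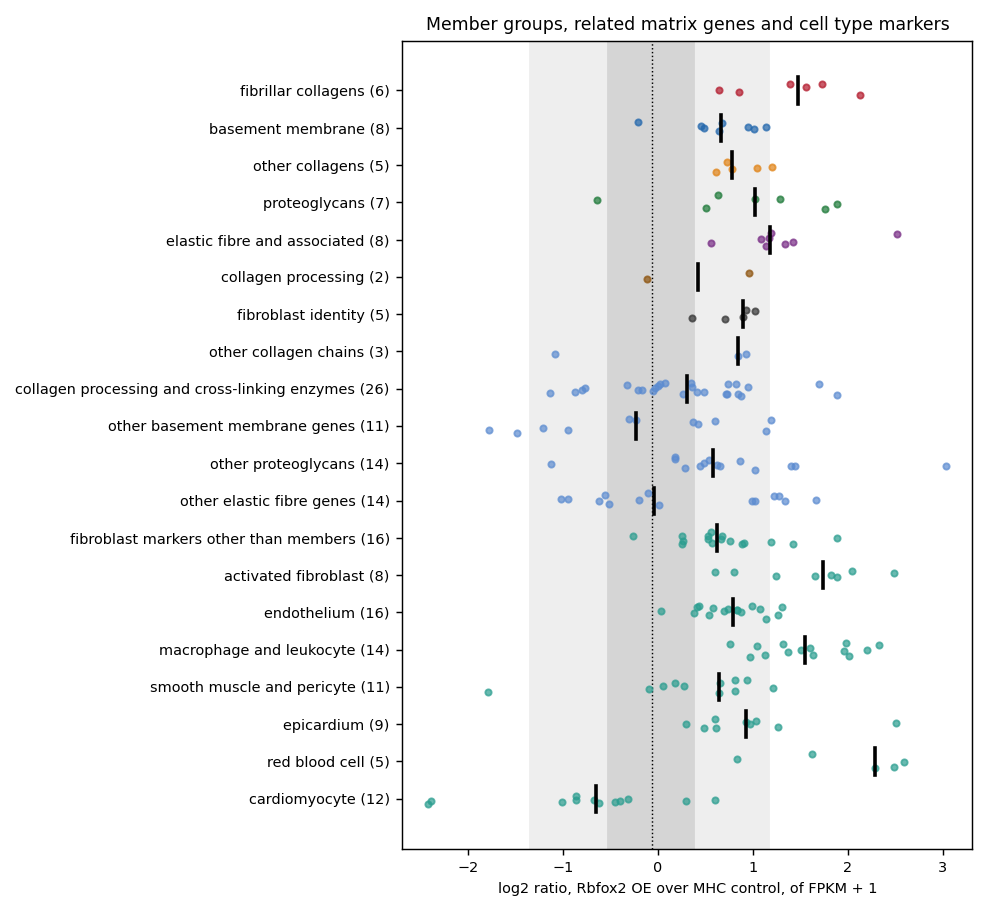
log2 ratio of FPKM + 1, Rbfox2 OE over MHC control, for genes averaging 1 FPKM or more in each member group, each list of related matrix genes (blue) and each cell type marker list (teal), with the number of genes in parentheses, a black bar at the list median, and shading from the 5th to the 95th (-1.35 to 1.17) and from the 25th to the 75th percentile (-0.52 to 0.38) of all 11697 genes. The medians of the fibrillar collagens (1.47) and elastic fibre members (1.18) lie at or beyond the right edge of the shading. So do those of the red blood cell (2.28), activated fibroblast (1.74) and macrophage and leukocyte (1.55) lists. The cardiomyocyte median (-0.65) lies on the left.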

How the data were processed

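Polyadenylated RNA of isolated cardiomyocytes was sequenced on an Illumina HiSeq4000 from TruSeq stranded libraries, per the labels' protocols. Per the file headers, the authors' FPKM values and bounds are Cuffdiff output, with both libraries of a group combined. The submitters' processing notes name STAR 2.4.2a, Cuffdiff 2.2.1 and GRCm38. The normalization mode, annotation and use of strand are not given in the sources used here. The number of per-library columns was 0, so limma, the planned test for values per library, was not run.

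Rows sharing a gene name were summed. From the deposited FPKM values, log2 ratios were computed with a pseudocount of 1 over genes averaging 1 FPKM or more, using Python 3.11.15 and pandas 2.3.3, and the calculations were tested on simulated data. Scaling affects every ratio: centring on the median gene shifts Rbfox2 OE by 0.06 on the log2 scale, rescaling without mitochondrial and top genes by 0.16, and upper quartile scaling by 0.20. Coordinates come from GENCODE M21 (GRCm38), in which 99.2% of gene identifiers were found. Exons of 13 members overlap another annotated gene. Members and lists were chosen with earlier results of these data known. All members were described, with both levels and bounds for those with separate bounds and for the most abundant of each role. From each list of related or marker genes up to 5 past 2-fold with separate bounds were eligible to be named. Other genes named were chosen after their values were seen.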

Additional observations from a re-analysis of the deposited data

How the results depend on the processing

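No paired analysis was possible because no column belongs to a single library, and for the same reason no library could be left out. The number of members 2-fold higher, 20 of 41, was 10 with a pseudocount of 5 (2.60% of all genes). It was 33 with a 1.5-fold threshold (16.6% of all genes), with 1 lower (22.1%), and 2 with a 4-fold threshold (1.16%). Leaving out members that overlap another gene gave 14 of 28 (6.97% of all genes), and a minimum mean of 5 FPKM gave 15 of 31 (6.54%). Centring on the other fibroblast markers gave 5 higher (2.77%), 1 lower (26.0%), and 7 and 1 with separate bounds. The number was between 20 and 25 under the remaining alternatives, with 25 under upper quartile scaling (9.92% of all genes). A larger pseudocount and a higher threshold can only lower the number. The 5 under the centring depends on the values of the other fibroblast markers, whose median log2 ratio of 0.62 was taken off. The median log2 ratio of the members, 0.96, ranged from 0.38 with that centring to 1.15 with upper quartile scaling. Serpinh1 changed sign to 0.039 on rescaling without mitochondrial and top genes and to 0.086 with upper quartile scaling. Centring on the fibroblast markers turned Lamc1 (-0.14), Lama4 (-0.083), Prelp (-0.062), Tcf21 (-0.14) and the collagen-processing median (-0.18) negative, and that median was -0.11 without members that overlap another gene, where Serpinh1 alone was left. Among single members, Col12a1, near 0, moved to 1.52 with a pseudocount of 0.1. The spread between libraries and the depth in reads are unknown, which limits the low members most.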

Other observations

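Several of these genes lie beside relatives in the genome, and whether neighbours differ in their ratio was not tested. Dcn and Lum are neighbours on chromosome 10 with log2 ratios of 1.03 and 0.63, and the related genes Kera and Epyc of the same cluster were listed at 0 in both groups and stood at 0.0168 and 0.0982 FPKM. Fmod and Prelp are neighbours on chromosome 1, with log2 ratios of 1.29 and 0.51. Col3a1 and Col5a2, which lie side by side on that chromosome, had 2.13 and 1.39. Ogn shares its locus in the table with Aspn, Ecm2 and Omd. Aspn and Ecm2 had log2 ratios of 0.53 and 0.29, against -0.64 for Ogn, and Omd was under 1 FPKM in both groups. The bounds of Ogn, Aspn, Ecm2 and Omd overlapped between groups, and whether fragments of this locus were divided correctly among its genes was not tested.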
